A study of Schizosaccharomyces pombe with 14 samples.

Results

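Fission yeast, Schizosaccharomyces pombe, is a single-celled fungus whose genes carry many short introns. The genes described here are its protein-coding genes with 5 or more annotated exons. They were chosen from the count table by their systematic name (beginning with SPA, SPB or SPC and containing no RNA) and by at least 5 entries in the column of exon starts, so no measured value entered the choice. The rule found 347 of the 7049 genes in the table. Of these, 341 are typed as protein-coding in RefSeq, out of 5104 such genes, and 6 are typed as pseudogenes. The results below are for the 341, and 2603 protein-coding genes with 1 exon served for comparison.

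Introns are removed by the spliceosome, which is built on the small nuclear RNAs (snRNAs) U1, U2, U4, U5 and U6. U1 pairs with the start of the intron, U2 with the branch point, and U5 holds the exon ends together while U6 takes part in catalysis. Pac1 is the RNase III of fission yeast, an enzyme that cuts double-stranded stems in RNA, and it is needed to make the 3′ ends of snRNAs. A gene with many introns needs many rounds of splicing for 1 mRNA, so the question asked of the data was whether its RNA level moved when Pac1 was lost and snRNA counts changed.

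The study sequenced rRNA-depleted total RNA in 14 libraries from 3 experiments. In the anchor-away experiment, the 2 Pac1-AA and 2 CTL libraries came from cells given rapamycin at 2.5 µg/mL for 2 h in EMM medium at 30°C. Rapamycin there ties Pac1 carrying an FRB-GFP tag (Pac1-FRB-GFP::natMX6) to the ribosomal protein Rpl13 fused to FKBP12, which carries it out of the nucleus. Both strains are h- and share torSE::KanMX6, fkh1::URA+, the nmt1-rpl13-2FKBP12 fusion at leu1-32, ura4-D18 and ade6-M210, and the tag on Pac1 is the only allele that the CTL strain lacks. In the temperature experiment, 2 pac1-ts isolates carried the pac1 allele G1024A, in the dsRNA-binding domain. These isolates and the wild type (WT) are all h+ with ade6M210, leu1-32, ura4-D18 and his3-D1. They were grown at 30°C or moved to 37°C for 2 h. Each isolate and the WT gave 1 library per temperature, so the spread in this experiment came from the pac1-ts isolates and the WT libraries were assumed to vary likewise. In the exonuclease experiment, the dis3 gene, the dhp1 gene or both stood under the thiamine-repressed promoter P81nmt1. These strains and a WT strain gave 1 library each from EMM with 60 µM thiamine at 30°C. All 4 strains carry leu1-32, ura4-D18 and his3-D1. The dhp1 strain is h- with ade6-M210 and the WT is h+ with ade6-M216, while the labels do not state the mating type or ade6 allele of the dis3 and dhp1 dis3 strains, so these differences cannot be told apart from the promoter change.

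Most of the 341 genes were close to the minimum of the rule. There were 170 genes with 5 exons, 82 with 6, 46 with 7 and 43 with 8 or more. The most exons were found in trt1, the catalytic subunit of telomerase, with 16 exons (minus strand of chromosome II, 2062472 to 2066165 in ASM294v2). Next came rdh54, a DNA translocase of recombination, with 15 exons, the histone deacetylase gene clr6 with 14, and the potassium transporter gene trk2 and the mitochondrial GTPase gene gem1 with 13 each. The exons of a gene summed to a median of 1858 bases (range 315 to 8146), against 1938 bases in single-exon genes, so the genes were not long ones. A total of 155 lay on chromosome I, 118 on II and 68 on III, and 61 (17.9%) overlapped another gene on the same strand, against 20.8% of single-exon genes.

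The introns were short. Of the 341 genes, 324 had the same intron positions, base for base, in the deposited annotation and in the RefSeq annotation of build ASM294v3, from which sequences were read. Their 1654 introns had a median length of 50 bases (range 32 to 817), and 88.2% were under 100 bases. The single introns of 1079 genes with 2 exons had a median of 67 bases. Of the 1654 introns, 1630 lay within the coding sequence.

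The first 6 bases of an intron are read by U1 and later by U6, and the fission yeast motif is GTANGT, where N is any base. The motif was looked for only at that position, on the strand of the gene. It stood at the start of 790 of 1654 introns (47.8%) of genes with 5 or more exons, against 698 of 1079 introns (64.7%) of 2-exon genes and 1941 of 3380 (57.4%) of genes with 2 to 4 exons. At the other end, 65.0% of the introns of genes with 5 or more exons closed with TAG, 20.4% with CAG and 14.3% with AAG, against 76.9%, 14.1% and 8.16% in 2-exon genes. A match is a description of the letters only. The splice sites of 4 genes on which the results below turn are printed here from 5′ to 3′, each with the last 6 bases of the exon, the first 6 bases of the intron in capitals and the next 8 bases. Coordinates are those of the whole intron.
prr1 intron 1, chrI:3666037-3666133, plus strand: gactttGTATGTtggttcct
prr1 intron 2, chrI:3666224-3666979, plus strand: ttggatGTAAGAaatccttg
prr1 intron 3, chrI:3667060-3667112, plus strand: caacaaGTATGAgatatttt
prr1 intron 4, chrI:3667171-3667313, plus strand: gaagggGTATGTcatatggg
SPCC1529.01 intron 1, chrIII:237924-237974, plus strand: tcatagGTAAGTctttcttc
SPCC1529.01 intron 2, chrIII:238081-238138, plus strand: tggaacGTAAGTatatatat
SPCC1529.01 intron 3, chrIII:238534-238587, plus strand: aatatgGTAGGTaaaatagt
SPCC1529.01 intron 4, chrIII:239093-239150, plus strand: atttatGTATGTtttttgat
msi2 intron 1, chrII:224376-224423, plus strand: tctataGTAAGTtttcgaaa
msi2 intron 2, chrII:224865-224936, plus strand: ggacggGTATGTtaattgta
msi2 intron 3, chrII:224978-225298, plus strand: ccgatgGTATGTtaattttc
msi2 intron 4, chrII:225463-225507, plus strand: aaaattGTATGTtaaaaaac
dli1 intron 1, chrI:4738741-4738778, minus strand: gcatagGTACGCtccatatt
dli1 intron 2, chrI:4738555-4738596, minus strand: tgaaagGTACGCgattagta
dli1 intron 3, chrI:4738284-4738329, minus strand: agtctcGTAAGAttgattga
dli1 intron 4, chrI:4738148-4738188, minus strand: aaacagGTAAGAtacccttg

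All 4 introns of SPCC1529.01 and of msi2 opened with GTANGT, whereas 2 of 4 did in prr1 and 0 of 4 in dli1. In trt1 the motif opened 2 of 15 introns and in rdh54 2 of 14, against 8 of 13 in clr6, 8 of 12 in trk2 and 5 of 12 in gem1. The second intron of prr1, at 756 bases, was among the longest of the set.

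Library totals were 19877576 to 53258725 fragments in the anchor-away experiment, 15997568 to 17743083 in the temperature experiment and 6836270 to 9470347 in the exonuclease experiment. The 341 genes were of middling abundance. Their median over the anchor-away libraries was 33.4 FPKM, that is fragments scaled to exon length and library total, with a range of 0.47 to 705. The most abundant were gnd1 (705 FPKM), an enzyme of the pentose phosphate pathway, nda3 (357), encoding β-tubulin, the Rab GTPase gene ypt1 (342), the V-ATPase gene vma3 (324) and the cytochrome oxidase gene cox12 (311). All 341 passed the filter on low counts in each experiment. Of the protein-coding fragments, the 341 took 3.55% and 3.55% in Pac1-AA libraries, against 3.39% and 3.33% in CTL libraries. At 30°C they took 3.35% and 3.41% in pac1-ts, against 3.32% in WT. At 37°C they took 4.01% and 4.13% in pac1-ts, against 4.0% in WT. This share was thus higher at 37°C than at 30°C in both strains.

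The snRNA counts moved in the Pac1 libraries. In anchor-away the protein is relocated, so pac1 RNA is no check of the label. It was 157 and 154 CPM (fragments scaled to library totals with TMM factors) in Pac1-AA, against 97.0 and 94.2 in CTL. The fkh1 gene, itself one of the 341 with 5 exons and disrupted in both anchor-away strains, had 61.9 and 63.0 CPM in Pac1-AA and 62.6 and 59.9 in CTL, so these counts do not show the disruption. The snu5 count (U5) was 58.0 and 60.8 CPM in Pac1-AA, against 8.33 and 7.06 in CTL. At 30°C it was 562 and 615 CPM in pac1-ts, against 17.8 in WT. At 37°C it was 1590 and 2164 CPM in pac1-ts, against 20.3 in WT. Every Pac1-AA or pac1-ts library thus lay above its controls. These were rises of 2.98, 5.05 and 6.53 on the log2 scale (edgeR's quasi-likelihood test, adjusted p = 7.43e-09, 1.2e-07 and 1.36e-08). The snu2 count (U2) fell by 0.35 in Pac1-AA (adjusted p = 0.00140) and rose by 2.21 in pac1-ts at 37°C (adjusted p = 1.99e-07), snu4 (U4) fell by 0.49 in Pac1-AA (adjusted p = 0.00319), and snu1 and snu6 passed the test in none of the 3 Pac1 comparisons. The counted snRNA features extend beyond the mature RNA, so a count can include uncleaved, extended transcripts and is not a measure of working snRNA.

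Few of the 341 genes passed the test in Pac1-AA against CTL. A gene was called when its adjusted p was below 0.01 at any fold. Only prr1 and lam1 rose and 9 fell, that is 0.587% and 2.64% of the 341, whereas 4.55% of all 6328 genes tested rose and 7.46% fell. Single-exon genes at the same abundance (the mean over 5 bins of the abundance of the 341 genes) rose in 6.01% and fell in 8.32% of cases. The median log2 change was -0.01 for the 341 genes, against 0.00 for the matched single-exon genes and 0.00 for all genes tested. The difference to the matched single-exon genes was -0.011, smaller than its SD of 0.0121 between replicates. None of the 341 passed a log2 change of 1 in Pac1-AA, which 0.838% of all genes did.

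**Figure D1:**
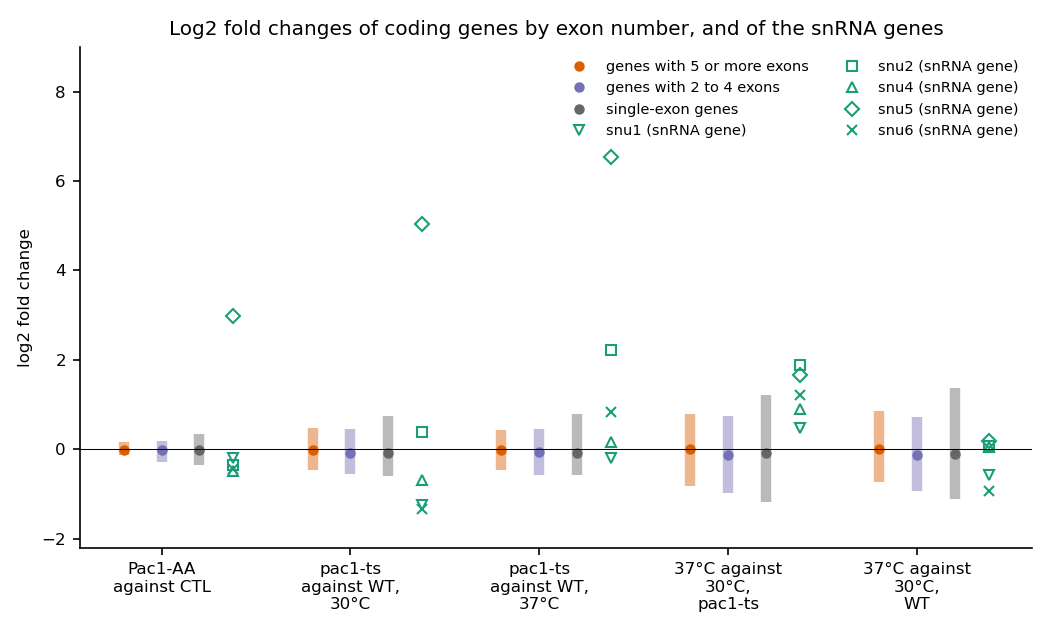
Log2 fold change (vertical axis) in 5 comparisons (horizontal axis) for protein-coding genes with 5 or more exons, with 2 to 4 exons and with 1 exon. Dots are medians, bars run from the 5th to the 95th percentile of genes, and open markers and crosses show the 5 snRNA genes. In Pac1-AA against CTL the bar of the 5-exon-and-more genes runs from -0.13 to 0.16 and that of single-exon genes from -0.36 to 0.34, while snu5 lies at 2.98.

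The genes with many exons were also the narrowest set, in a comparison not matched on abundance. In Pac1-AA against CTL the 5th and 95th percentiles of the 341 lay at -0.13 and 0.16 on the log2 scale, against -0.36 and 0.34 for single-exon genes. Their median size of change, without sign, was 0.047, against 0.080 for single-exon genes and 0.083 for all genes tested. By exon number, 5.81% rose and 11.3% fell among single-exon genes in Pac1-AA, 3.03% and 9.98% among 2-exon genes, 2.13% and 5.49% with 3 exons, 2.22% and 2.50% with 4, 0.588% and 2.35% with 5, 1.22% and 4.88% with 6, and 0 and 2.17% with 7. The shares were lower with 3 or more exons than with 1 or 2, but did not fall at every step, since the 6-exon class lay above the 5-exon class. Of the 43 genes with 8 or more exons 0 were called by edgeR and 0 by DESeq2, and 6 had an unadjusted p below 0.05. No test of this order was made.

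**Figure D2:**
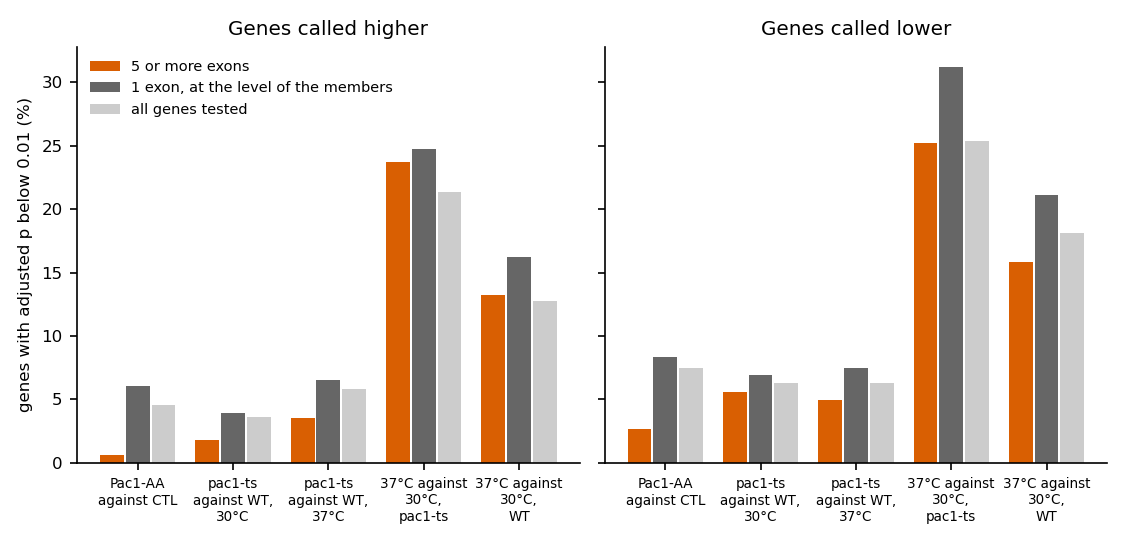
Percent of genes called higher or lower (vertical axis, adjusted p below 0.01) in 5 comparisons, for the 341 genes with 5 or more exons, single-exon genes at the same abundance and all genes tested. In Pac1-AA against CTL the bars of the 341 genes reach 0.587% higher and 2.64% lower, below those of both other sets.

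The clearest change among the 341 was that of prr1. It encodes a transcription factor of the stress response with a DNA-binding domain like that of heat shock factors. prr1 had 358 and 352 CPM in Pac1-AA, against 217 and 231 CPM in CTL, a rise of 0.66 ± 0.034 on the log2 scale (SE, n = 2 each, edgeR's quasi-likelihood test, adjusted p = 1.51e-06). At 30°C it had 442 and 420 CPM in pac1-ts, against 195 in WT, a rise of 1.14 ± 0.097 (SE, 2 and 1 libraries, adjusted p = 2.22e-05). At 37°C it had 295 and 307 CPM in pac1-ts, against 182 in WT, a rise of 0.73 ± 0.095 (adjusted p = 0.000357). The pac1 mutant or depleted libraries thus lay above their controls in all 3 comparisons. Every one of the 341 called in these comparisons had groups without overlap, so this alone does not set prr1 apart. prr1 was the only one of the 341 past a log2 change of 1 in pac1-ts at 30°C, where 2.41% of all genes were.

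SPCC1529.01, annotated as a transporter, and msi2, annotated as a subunit of a cleavage factor complex for mRNA 3′ ends, fell in all 3 comparisons. SPCC1529.01 had 32.5 and 31.3 CPM in Pac1-AA, against 40.4 and 38.8 in CTL (log2 change -0.31 ± 0.047, adjusted p = 0.00129, edgeR's quasi-likelihood test). It had 43.3 and 44.1 CPM in pac1-ts at 30°C, against 84.8 in WT (-0.96 ± 0.09, adjusted p = 5.13e-05). At 37°C it had 46.1 and 42.0 CPM in pac1-ts, against 74.4 in WT (-0.75 ± 0.089, adjusted p = 0.000179). The log2 change was larger in size in the pac1-ts libraries, which are from another experiment with another library kit, and this difference was not tested. msi2 had 167 and 169 CPM in Pac1-AA, against 198 and 194 in CTL (-0.22 ± 0.028, adjusted p = 0.000431). It had 209 and 197 CPM in pac1-ts at 30°C, against 320 in WT (-0.66 ± 0.094, adjusted p = 0.000791), and 151 and 153 CPM in pac1-ts at 37°C, against 224 in WT (-0.56 ± 0.095, adjusted p = 0.00193). Both genes overlap a noncoding gene on the same strand, and a fragment on both genes was not counted, so a change in the overlapping RNA could alter these counts, which was not tested. Without the library Pac1-AA replicate 2, the fall of SPCC1529.01 was no longer called (adjusted p = 0.0205), while the rise of prr1 in Pac1-AA passed in every alternative run.

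**Figure D3:**
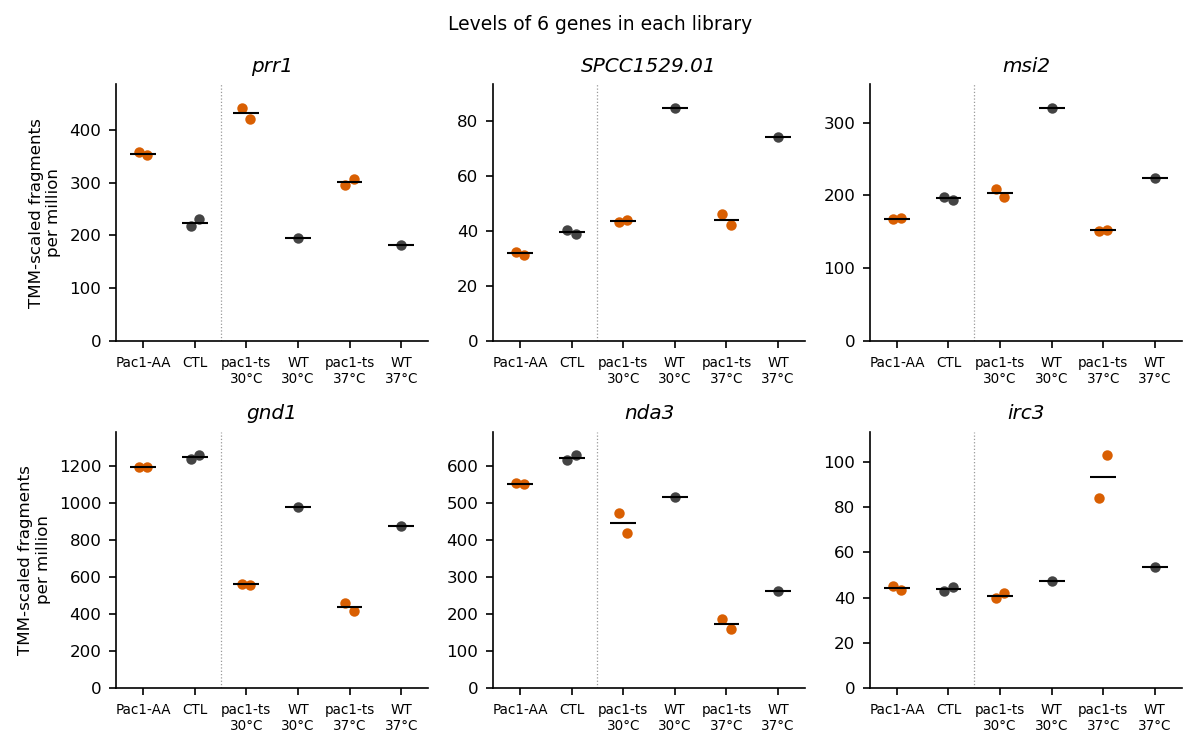
TMM-scaled CPM (vertical axis, starting at 0) of prr1, SPCC1529.01, msi2, gnd1, nda3 and irc3 in each library of Pac1-AA, CTL, pac1-ts and WT at 30°C, and pac1-ts and WT at 37°C. Points are libraries and lines are group means. For prr1 the Pac1-AA libraries sit at 358 and 352, above 217 and 231 in CTL, and irc3 is highest in pac1-ts at 37°C with 83.7 and 103.

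The remaining calls in Pac1-AA were shallow. cdd1, encoding cytidine deaminase, had 178 and 177 CPM in Pac1-AA, against 218 and 214 in CTL, and fell by 0.28 on the log2 scale (edgeR's quasi-likelihood test, adjusted p = 5.88e-05). mug161, a CwfJ family splicing factor, had 130 and 132 CPM in Pac1-AA, against 146 and 149 in CTL, and fell by 0.17 (adjusted p = 0.00307). nda3 had 554 and 550 CPM in Pac1-AA, against 615 and 629 in CTL, and fell by 0.17 (adjusted p = 0.00546). These falls amount to a small part of each level, and each rests on library pairs that lie close together. lam1, a subunit of the Ragulator-Rag complex of amino acid signalling, had 59.5 and 58.5 CPM in Pac1-AA, against 52.6 and 51.6 in CTL (log2 change 0.18, adjusted p = 0.00644). The other falls were those of hrb1 (mRNA export factor, -0.17), sec6102 (-0.16), fsf1 (sideroflexin, -0.15) and aip1 (actin patches, -0.13). The number of calls rests on single libraries. Without Pac1-AA replicate 1, 4 of the 11 remained called, without Pac1-AA replicate 2, 3 did, and without CTL replicate 1 or CTL replicate 2 the falls numbered 15. With library totals in place of TMM factors, which moved the median of all genes by 0.106, 42 of the 341 were called higher and 2 lower. With the replicate number as a block, 11 were higher and 26 lower.

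The 5 genes with the most exons showed almost no change in Pac1-AA. trt1 had 77.6 and 77.4 CPM in Pac1-AA, against 80.1 and 77.1 in CTL (log2 change -0.02). rdh54 had 36.8 and 34.1 CPM in Pac1-AA, against 39.8 and 36.1 in CTL (-0.09). clr6 had 127 and 123 CPM in Pac1-AA, against 128 and 122 in CTL (0.00). The groups overlapped for each of these, and the log2 changes of trk2 (-0.03) and gem1 (0.01) did not pass the test.

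At 30°C few of the 341 were called in pac1-ts against WT, where snu5 differed by 5.05 on the log2 scale. A total of 6 (1.76%) were higher and 19 (5.57%) lower, against 3.63% and 6.3% of all 6728 genes tested, and 3.89% and 6.91% of single-exon genes at the same abundance. The median log2 change was -0.03, against -0.05 for matched single-exon genes. Without adjustment, 113 of the 341 had p below 0.05 (edgeR's quasi-likelihood test). On simulated temperature counts 26 of 100 genes changed by 0.5 (log2) were recovered, so most changes of that size would not be called. Without the 37°C library of pac1-ts replicate 1 the counts were 17 and 41, and without that of replicate 2 they were 29 and 43. With each pac1-ts isolate as a block over both temperatures, 31 were higher and 60 lower. This block takes the difference between isolates out of the error, so it is not a stricter test of strain. The calls over all genes under it were not counted. Under TMM factors from protein-coding genes alone 15 were higher and 10 lower, and with library totals 8 and 13, so the balance of direction rests on the scaling.

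Among the rises at 30°C besides prr1 were cay1 (cactin, a protein linked to splicing, 61.0 and 64.0 CPM in pac1-ts, against 43.2 in WT), the protein phosphatase 1 gene sds21 (54.3 and 58.7, against 39.2 in WT) and the nitrilase gene nit1 (58.5 and 58.6, against 39.1 in WT), with log2 changes of 0.53, 0.53 and 0.58. The others were wtf11 and wtf5 (0.80 and 0.65). The wtf genes are a repeated family of meiotic drivers and suppressors with near-identical copies, so their counts are uncertain. After that of SPCC1529.01, given above, the largest fall was that of cyp1, a cyclophilin. It had 77.6 and 77.5 CPM in pac1-ts, against 137 in WT (log2 change -0.82, edgeR's quasi-likelihood test, adjusted p = 0.000252). gnd1, the most abundant of the 341, had 566 and 559 CPM in pac1-ts, against 982 in WT (-0.80, adjusted p = 0.000255). It lies next to msi2 on the same strand of chromosome II (230269 to 233218 in ASM294v2). In Pac1-AA it had 1195 and 1196 CPM, against 1241 and 1260 in CTL (-0.06, adjusted p = 0.199). Smaller falls were those of ccp1 (a chaperone that removes CENP-A, -0.67), mtq2 (-0.62), spx2 (-0.58), rex2 (an RNA exonuclease, -0.55) and srp2 (-0.45).

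At 37°C, 12 of the 341 (3.52%) were higher in pac1-ts than in WT and 17 (4.99%) lower, against 5.8% and 6.29% of all genes tested, and 6.49% and 7.48% of matched single-exon genes. With the isolate as a block, which again leaves the difference between isolates out of the error, the counts were 31 and 54. The falls numbered 27 to 38 when any of the 4 pac1-ts libraries was left out. With library totals they were 7 and 32, and with RLE size factors 7 and 24. Past a log2 change of 1 were SPAC1687.21, annotated as a fructose-2,6-bisphosphatase, and gnd1, both lower, while 2.85% of all genes passed it. SPAC1687.21 had 69.5 and 54.4 CPM in pac1-ts, against 126 in WT (-1.02, adjusted p = 0.00141, edgeR's quasi-likelihood test). gnd1 had 460 and 416 CPM in pac1-ts, against 878 in WT (log2 change -1.0, adjusted p = 4.25e-05). In both genes the pac1-ts libraries lay well below the WT library. nda3 had 187 and 160 CPM in pac1-ts at 37°C, against 262 in WT (-0.59, adjusted p = 0.0039). Further falls were those of ckn1 (a DNA repair protein, -0.59), pan2 (poly(A) nuclease, -0.59), cyp1 (-0.58) and cab4 (-0.58). Rises at 37°C included npg1 (121 and 119 CPM in pac1-ts, against 70.0 in WT), dli1 (116 and 129, against 82.7 in WT) and cds1, the DNA replication checkpoint kinase gene (150 and 152, against 102 in WT), with log2 changes of 0.78, 0.57 and 0.57. The others named by the rule were wtf5 (0.80), the signalosome gene csn2 (0.56) and gpc1 (0.55).

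Only irc3, a helicase gene, passed the test of whether the strain effect differed between temperatures (0.293% of the 341, against 1.26% of all genes tested). It had 83.7 and 103 CPM in pac1-ts at 37°C, against 53.4 in WT. At 30°C it had 39.8 and 42.1 CPM in pac1-ts, against 47.5 in WT. The rise on the heat shift was 1.19 in pac1-ts and 0.17 in WT, and the difference was 1.02 ± 0.17 (SE, adjusted p = 0.00799, edgeR's quasi-likelihood test). With RLE factors, library totals, TMM over protein-coding genes or a stricter filter the adjusted p was 0.0128 to 0.0320, so the call rests on the settings. With the isolate as a block, 9 of the 341 passed.

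Far more of these genes were called on the shift to 37°C than in the Pac1 comparisons. In pac1-ts 81 (23.8%) rose and 86 (25.2%) fell on the shift, against 21.4% and 25.4% of all genes tested. In WT 45 (13.2%) rose and 54 (15.8%) fell, against 12.8% and 18.1% of all genes. Single-exon genes at the same abundance rose in 24.7% and fell in 31.2% of cases in pac1-ts, and rose in 16.2% and fell in 21.1% in WT. With the isolate as a block, 71 rose and 88 fell in WT. Past a log2 change of 1 were 7 rises and 8 falls in pac1-ts and 11 and 5 in WT, against 11.1% and 10.4% of all genes. Of the rises, 40 were common to both strains (49.4% of those in pac1-ts and 88.9% of those in WT), and of the falls 52 (60.5% and 96.3%). The overlap between strains was not counted over all genes tested. Whether these shares differ from those of other genes was therefore not tested. The balance depends on the scaling. With library totals, which moved the median of all genes by 0.285 in pac1-ts and 0.417 in WT, 169 rose and 47 fell in pac1-ts and 157 and 8 in WT. With TMM over protein-coding genes the counts were 103 and 67 in pac1-ts and 82 and 35 in WT.

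Dli1 is a dynein intermediate light chain of meiosis, and its gene had the largest rise of the 341 in pac1-ts. It had 116 and 129 CPM at 37°C, against 36.2 and 32.2 at 30°C in pac1-ts (log2 change 1.84, edgeR's quasi-likelihood test, adjusted p = 1.56e-08). In WT it had 82.7 CPM at 37°C, against 30.8 at 30°C (1.43, adjusted p = 6.43e-06). fau1, a folate enzyme gene, had 66.0 and 78.6 CPM at 37°C, against 32.6 and 34.9 at 30°C in pac1-ts, and 91.7 at 37°C, against 32.5 at 30°C in WT (1.10 and 1.50). Both genes lay higher in every 37°C library. npg1 (1.57 in pac1-ts and 1.19 in WT), mug126 (1.43 and 1.14) and the nuclear pore gene nup131 (1.03 and 1.21) rose in both strains.

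The largest falls on the shift included those of β-tubulin, an SR protein and the Sec61 channel. nda3 had 187 and 160 CPM at 37°C, against 473 and 418 at 30°C in pac1-ts (log2 change -1.36, edgeR's quasi-likelihood test, adjusted p = 5.16e-07). In WT nda3 had 262 CPM at 37°C, against 515 at 30°C (-0.98, adjusted p = 0.000173). srp2, which encodes an SR protein of splicing and has 10 exons, had 195 and 214 CPM at 37°C, against 448 and 439 at 30°C in pac1-ts, and 261 at 37°C, against 607 at 30°C in WT (-1.12 and -1.22). sec61, the channel of protein import into the endoplasmic reticulum, had 101 and 99.2 CPM at 37°C, against 244 and 222 at 30°C in pac1-ts, and 132 at 37°C, against 272 at 30°C in WT (-1.22 and -1.05). None of these 3 passed the test of a difference between strains. vma3 fell by 1.25 in pac1-ts and by 0.95 in WT, ccp1 by 1.04 and 1.13. Further falls were those of cox12, fkh1 and vma2 in pac1-ts (-1.10, -1.06 and -1.03) and of ost3, osh6 and pat10 in WT (-1.08, -1.04 and -0.83). mvp1 and wtf21 rose in pac1-ts (0.95 and 1.00).

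The median change on the heat shift was lowest in genes with 2 exons and highest in those with 8 or more. In pac1-ts it was -0.08 in single-exon genes, -0.13 with 2 exons, -0.12 with 3, -0.10 with 4, -0.07 with 5, 0.00 with 6, 0.06 with 7 and 0.09 with 8 or more. In WT it was -0.10, -0.15, -0.12, -0.10, -0.11, -0.03, 0.07 and 0.18 in the same order. The 43 genes with 8 or more exons held 14 rises and 4 falls in pac1-ts and 8 and 3 in WT, whereas the 170 with 5 exons held 36 and 52 in pac1-ts and 19 and 32 in WT. Set against single-exon genes of the same abundance, the 341 lay higher by 0.0992 in pac1-ts and by 0.0853 in WT. This is the median of the 341 less the mean of the single-exon medians of 5 abundance bins. Bin by bin, the difference of medians was -0.025 in pac1-ts and -0.0096 in WT in the most abundant bin. In the other bins it was 0.052 to 0.108 in pac1-ts and 0.016 to 0.157 in WT. Abundance moved with the same outcome. In the most abundant of 5 equal bins of the 341 the median change was -0.35 in pac1-ts and -0.37 in WT, and in the least abundant bin it was 0.19 and 0.25. No such order was seen in Pac1-AA against CTL, where the medians of the 8 classes lay between -0.02 and 0.01. In pac1-ts against WT the difference to the matched single-exon genes was 0.0207 at 30°C and 0.0509 at 37°C.

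**Figure D4:**
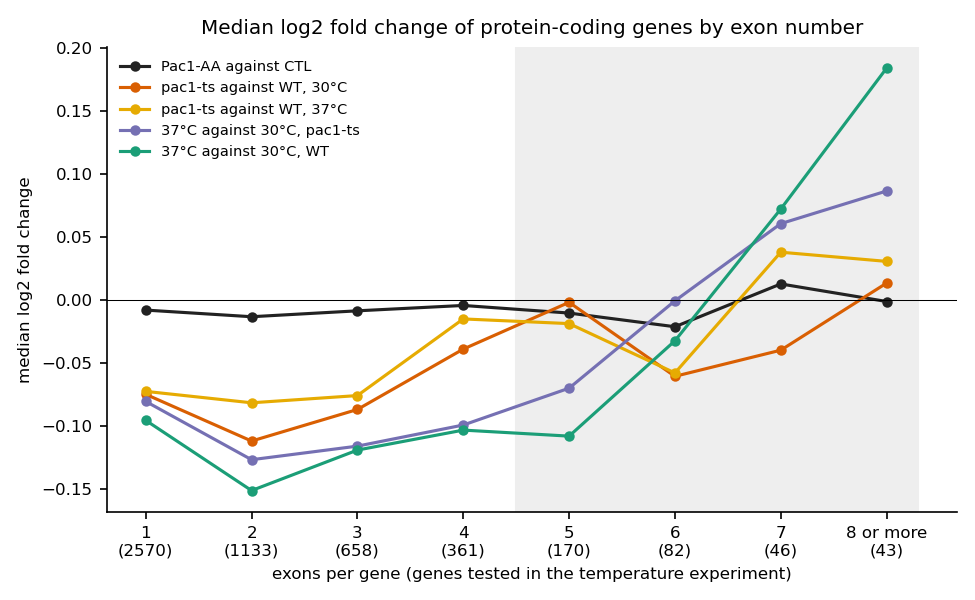
Median log2 fold change (vertical axis) of protein-coding genes by number of exons (horizontal axis, 1 to 8 or more) in 5 comparisons, one line each, with the classes of 5 or more exons shaded. The lines for 37°C against 30°C end at 0.09 in pac1-ts and 0.18 in WT, while Pac1-AA against CTL stays between -0.02 and 0.01.

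The 341 genes include 14 wtf genes. Of these, 8 rose and 0 fell on the heat shift in pac1-ts and likewise in WT, with medians of 0.62 and 0.85, against 0.02 and -0.02 for all genes tested, of which 21.4% rose in pac1-ts and 12.8% in WT. In pac1-ts against WT 2 rose at 30°C and 1 at 37°C, against rises in 3.63% and 5.8% of all genes tested. The medians of the 14 were 0.55 and 0.28, against -0.005 and 0.004 for all genes. In Pac1-AA 0 rose and 0 fell by edgeR or DESeq2 (3 had an unadjusted p below 0.05), where 4.55% of all genes rose and 7.46% fell. Without the wtf genes in both sets, a choice made after seeing the data, the 341 lay above single-exon genes by 0.0640 in WT on the shift.

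A list of 89 splicing factor genes held 9 of the 341: prp39 of the U1 particle, sap114 of U2, prp3 of the tri-snRNP, cdc5 and prp17 of the Prp19 complex, the Lsm ring gene lsm3, the debranching enzyme gene dbr1, rsd1 and srp2. In Pac1-AA 0 of the 9 rose and 0 fell by edgeR or DESeq2 (1 had an unadjusted p below 0.05), with a median of -0.02, and in pac1-ts at 30°C srp2 alone fell (448 and 439 CPM in pac1-ts, against 607 in WT, -0.45, adjusted p = 0.00656, edgeR's quasi-likelihood test). At 37°C 0 of the 9 rose and 0 fell in pac1-ts against WT by edgeR, 1 was called by DESeq2 and 1 had an unadjusted p below 0.05. Over all 89, 2 rose and 2 fell in Pac1-AA, where 4.55% of all genes tested rose and 7.46% fell. In pac1-ts 1 rose and 5 fell at 30°C, against 3.63% and 6.3% of all genes, while 2 rose and 4 fell at 37°C, against 5.8% and 6.29%. The list is not complete. Outside it are 4 further members that RefSeq annotates as splicing or snRNP proteins (mug161, spf38, dim1 and SPBC11C11.01), taken up after their values were seen. Of these mug161 fell in Pac1-AA, as given above. SPBC11C11.01, annotated as U2-associated, had 55.8 and 52.0 CPM in pac1-ts at 30°C, against 73.4 in WT (-0.45, adjusted p = 0.00486, edgeR's quasi-likelihood test), and 54.6 and 54.4 CPM at 37°C, against 73.4 in WT (-0.43, adjusted p = 0.00466), while DESeq2 called 0 of the 4 at either temperature. On the heat shift 6 of the 9 listed genes fell and 0 rose in each strain, against falls in 25.4% of all genes in pac1-ts and 18.1% in WT. Their medians were -0.35 in pac1-ts and -0.55 in WT, against 0.02 and -0.02 for all genes tested. With library totals 3 fell and 1 rose in pac1-ts, 1 fell and 2 rose in WT, and the medians were -0.07 and -0.13. Of all 89 splicing genes, 31 fell and 10 rose in pac1-ts on the shift, and 25 fell and 1 rose in WT. prp39 had 143 and 137 CPM at 37°C, against 216 and 206 at 30°C in pac1-ts, and 149 at 37°C, against 221 at 30°C in WT (-0.59 and -0.57). prp3 had 133 and 138 CPM at 37°C, against 201 and 212 at 30°C in pac1-ts, and 155 at 37°C, against 222 at 30°C in WT (-0.61 and -0.52). Both genes were lower in every 37°C library, as were lsm3 and cdc5, and prp17 and rsd1 did not pass the test in either strain.

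Other groups within the 341 were tallied by the same edgeR fits. The shares to set beside the tallies on the shift are 21.4% higher and 25.4% lower over all genes in pac1-ts, and 12.8% and 18.1% in WT. Of 19 genes of membrane traffic, 3 rose and 6 fell on the shift in pac1-ts and 2 and 5 in WT, and edgeR called sec6102 alone in the Pac1 comparisons, in Pac1-AA, while DESeq2 also called 1 in pac1-ts at 37°C. Of 8 cytoskeleton genes, 3 rose and 3 fell in pac1-ts and 1 and 3 in WT, and edgeR called nda3 alone in the Pac1 comparisons, in Pac1-AA and at 37°C, while DESeq2 also called 1 at 30°C. Of 11 genes of conjugation of ubiquitin and its relatives, 5 rose and 0 fell in pac1-ts on the shift, among them the cullin genes cul1 and cul3 and the conjugating enzyme gene ubc12, while 1 rose in WT. Of the 11, 0 were called in each Pac1 comparison by edgeR or DESeq2, and 1 in Pac1-AA, 5 at 30°C and 3 at 37°C had an unadjusted p below 0.05. Of 16 meiosis genes, 5 rose and 2 fell in pac1-ts on the shift and 3 and 2 in WT, and 1 fell in each Pac1 comparison (mug161 in Pac1-AA and mug64 in pac1-ts at both temperatures). Of 6 small GTPase genes, 0 were called in each Pac1 comparison by edgeR or DESeq2 (unadjusted p below 0.05 for 1 in Pac1-AA, 2 at 30°C and 0 at 37°C), and 1 rose and 2 fell in pac1-ts and 1 fell in WT on the shift. Of 6 kinase and cell cycle genes, cmk1 and cdc7 rose on the shift in both strains, and rpb9 alone fell among 3 RNA polymerase genes. The medians of these groups in Pac1-AA lay between -0.06 and 0.06.

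In the exonuclease experiment there was 1 library per strain, so there was no replicate check and no test. Dis3 is a 3′-5′ nuclease of the exosome and Dhp1 the nuclear 5′-3′ exonuclease. The counts of the targeted genes were read first. dis3 had 165 CPM in the library labelled dis3, 114 in that labelled dhp1 and 249 in that labelled dhp1 dis3, against 209 in WT. dhp1 had 398, 114 and 373 CPM in the same order, against 186 in WT. The counts of both targets thus stood above WT in the library labelled dhp1 dis3, which goes against its label, and the lowest dis3 count was in the library labelled dhp1. Genes were counted past a log2 ratio of 1.

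By this count 29 of the 341 (8.50%) were higher and 72 (21.1%) lower in the library labelled dis3 than in WT, against 24.5% and 19.8% of all 6192 genes. In the library labelled dhp1, 32 (9.38%) were higher and 30 (8.80%) lower, against 16.9% and 10.9%. In the library labelled dhp1 dis3, 33 (9.68%) were higher and 65 (19.1%) lower, against 25.2% and 19%. Single-exon protein-coding genes were not matched on abundance in this experiment. They were higher in 16.9% and lower in 22.5% of cases in the library labelled dis3, 8.87% and 11.2% in that labelled dhp1, and 15.7% and 23.8% in that labelled dhp1 dis3. The medians were -0.34, -0.14 and -0.23 for the 341 genes and -0.15, -0.08 and -0.25 for single-exon genes. Among the 43 genes with 8 or more exons, 4 (9.30%) were lower in each of these libraries. In the same class 6, 1 and 5 were higher in the libraries labelled dis3, dhp1 and dhp1 dis3. With library totals alone, 57 were higher and 10 lower in the library labelled dhp1.

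Of the 16 meiosis genes among the 341, 10 were higher and 1 lower in the library labelled dis3, 7 and 1 in that labelled dhp1, and 10 and 2 in that labelled dhp1 dis3, with median log2 ratios of 1.54, 0.77 and 1.61. The share of all genes higher was 24.5%, 16.9% and 25.2%. The 4 largest rises in the library labelled dis3 were all on this list. mug137, a BAR adaptor gene named for its induction in meiosis, had 439 fragments in the library labelled dis3, 85 in that labelled dhp1 and 447 in that labelled dhp1 dis3, against 5 in WT. Its log2 ratio in the library labelled dis3 was 5.93, with an exact 95% counting interval of 4.81 to 7.67. rec11, a meiotic cohesin gene with 9 exons, had 2032, 232 and 1543 fragments in the same order, against 149 in WT, with log2 ratios of 3.35 (3.12 to 3.61), 0.17 (-0.13 to 0.48) and 3.18 (2.94 to 3.44). It was thus higher in the libraries labelled dis3 and dhp1 dis3 and within counting error of WT in that labelled dhp1. meu13, needed for meiotic pairing, had 68, 12 and 53 fragments, against 3 in WT, and the cyclin gene crs1, active in meiosis, had 129, 90 and 221, against 13 in WT. rdh54, with 15 exons, had 293, 81.5 and 248 CPM, against 76.0 in WT. In the library labelled dhp1 the wtf genes wtf21 and wtf20 had log2 ratios of 2.79 and 2.45, and rti1 had 3.58 in that labelled dhp1 dis3.

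**Figure D5:**
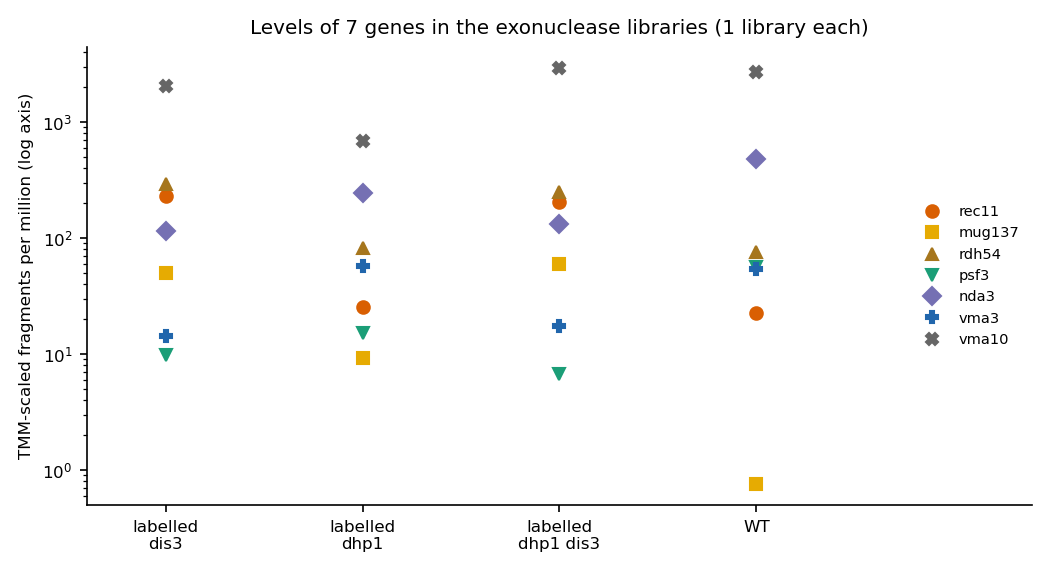
TMM-scaled CPM (vertical axis, logarithmic) of rec11, mug137, rdh54, psf3, nda3, vma3 and vma10 in the single libraries labelled dis3, dhp1, dhp1 dis3 and WT. rec11 stands at 231, 25.4 and 205, against 22.5 in WT, and psf3 at 9.88, 15.2 and 6.79, against 56.7 in WT.

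Among the largest falls was that of psf3, of the GINS complex of DNA replication. It had 87, 139 and 51 fragments in the libraries labelled dis3, dhp1 and dhp1 dis3, against 375 in WT, with log2 ratios of -2.51 (-2.88 to -2.18), -1.89 (-2.19 to -1.61) and -3.05 (-3.52 to -2.64). It was below WT in all 3. vma10, a V-ATPase subunit gene, had 6296 fragments in the library labelled dhp1, against 17946 in WT (-1.98, -2.02 to -1.94), whereas its ratio was 0.11 in that labelled dhp1 dis3. nda3 had 115, 244 and 132 CPM, against 486 in WT, and vma3 14.2, 57.5 and 17.6 CPM, against 54.5 in WT. ypt1 had a log2 ratio of -2.19 in the library labelled dis3 and of 1.00 in that labelled dhp1, so the nuclease libraries differed from each other beyond counting error. Also lower were atp14 and fkh1 in the library labelled dis3, pat10 and gup1 in that labelled dhp1, and rpb9, tad2 and tsn1 in that labelled dhp1 dis3. The snRNA counts in these libraries were uneven. snu6 had 4108, 19 and 3347 fragments in the libraries labelled dis3, dhp1 and dhp1 dis3, against 9 in WT, and snu5 had 0, 2 and 0, against 0 in WT, and their part in the ratios above was not tested. Of the 9 splicing factor genes, 0 were higher in each of the 3 libraries, and 1, 2 and 0 were lower. Over all genes 24.5%, 16.9% and 25.2% were higher and 19.8%, 10.9% and 19% lower. Of the list of 89 splicing genes, 88 were counted. In the library labelled dis3, 17 of these were higher and 10 lower. The counts were 3 and 14 in that labelled dhp1, and 14 and 4 in that labelled dhp1 dis3.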

How the data were processed

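The authors deposited 1 table of raw counts of fragments per gene for all 14 libraries, as whole numbers without normalization. Per the study's methods, rRNA-depleted stranded libraries (Zymo-Seq RiboFree for the temperature experiment, TruSeq with RiboZero for the others) were read paired-end, trimmed with Trimmomatic, mapped with HISAT2 to ASM294v2 and counted over exons by strand with featureCounts. A fragment on more than 1 gene was not counted. Exonic counts do not tell spliced from unspliced RNA.

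Genes were matched to RefSeq by locus tag (6844 of 7049). The 50 rows of the name rule with no match, and the 6 genes typed as pseudogenes, were left out of the results. The members and gene lists were chosen with earlier results of these data known. Counts were tested in edgeR 4.0.16 (R 4.3.3) with TMM factors, filterByExpr (minimum count 10), quasi-likelihood fits and Benjamini-Hochberg adjustment over all genes tested. Models were strain, or strain, temperature and their interaction. Groups follow the sample labels. DESeq2 1.42.0, other scaling factors, filters, thresholds, a replicate block and single libraries left out were the alternatives. Isolates sequenced at both temperatures pair those libraries (correlation of deviations 0.528). Replicates are separate libraries, and where they are not stated to be separate cultures p-values measure only their spread. Named genes were the 8 largest called rises and falls per comparison without overlap between groups, the 5 with the most exons and the 5 most abundant, and, in the exonuclease libraries, the 4 largest rises and falls with at least 100 counts. On simulated anchor-away counts 89 of 100 genes changed by 0.5 and 99 of 100 changed by 1 (log2) were recovered, and on simulated temperature counts 26 and 98 of 100. Exonuclease ratios used 0.5 added counts and a mean count of at least 10, and their Clopper-Pearson 95% intervals cover counting error only.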

Additional observations from a re-analysis of the deposited data

Results flagged for a closer look

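The strain effect differed between the temperatures for irc3, the only one of the 341 genes with 5 or more exons to pass the test of that difference. Its log2 change on the shift to 37°C was 1.02 ± 0.17 (SE) larger in pac1-ts than in WT (edgeR's quasi-likelihood test, adjusted p = 0.00799), with 83.7 and 103 CPM in pac1-ts and 53.4 in WT at 37°C. Among the genes read for context, the same difference was 1.82 ± 0.152 for snu2 (adjusted p = 0.000207), 1.48 ± 0.251 for snu5 (adjusted p = 0.00873) and 1.26 ± 0.162 for pac1 (adjusted p = 0.00249). pac1 had 85.8 and 77.2 CPM in pac1-ts and 69.0 in WT at 37°C, and 124 and 121 in pac1-ts and 248 in WT at 30°C. WT had 1 library per temperature in these tests, which assume that it varied as the pac1-ts isolates did.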

How the results depend on the processing

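Of the genes called, 1 of the 99 called in WT on the heat shift changed sign, with library totals. The balance of higher and lower calls did turn with the scaling, in Pac1-AA with library totals, at 30°C in the mutant with TMM over protein-coding genes and on the shift with either, and the median of the 341 in Pac1-AA was 0.10 with library totals, against -0.01. Counts are given as higher and lower among the 341 genes, where they moved by over 1.5 times, in the order Pac1-AA, mutant at 30°C, mutant at 37°C, shift in pac1-ts, shift in WT, interaction. With DESeq2 1 gene was higher in Pac1-AA and 6 at 37°C in the mutant. With RLE factors 7 were higher in pac1-ts at 37°C and 0 passed the interaction test. With library totals the counts were 42 and 2 in Pac1-AA, 7 and 32 at 37°C in the mutant, 169 and 47 in pac1-ts and 157 and 8 in WT on the heat shift, 0 for the interaction, and 57 and 10 in the library labelled dhp1. With TMM over protein-coding genes they were 15 and 10 in pac1-ts at 30°C, 82 and 35 in WT on the shift and 0 for the interaction. With a mean count of at least 50, 12 were lower in pac1-ts at 30°C and 0 passed the interaction test. At an adjusted p below 0.05 they were 12 and 24, 28 and 46, 25 and 44, 73 and 84 in WT on the shift, and 3 for the interaction. Past a log2 change of 1 they were 0 and 0, 1 and 0, 0 and 2, 7 and 8, and 11 and 5. Without the interaction term 82 and 85 were called in WT on the shift. The replicate block gave 11 and 26 in Pac1-AA, 31 and 60, 31 and 54, 71 and 88 in WT on the shift and 9 for the interaction. It changed no other call count by that much, and every gene called without it stayed called. For pac1-ts against WT the block takes the difference between isolates out of the error, so it is not a stricter test there. In the anchor-away libraries the replicates share only a number (correlation of same-numbered deviations 0.083, 2 pairs). Leaving out 1 library at a time gave 1 to 7 higher and 2 to 15 lower in Pac1-AA, 6 to 29 and 16 to 43 at 30°C and 13 to 18 and 27 to 38 at 37°C in the mutant, 64 to 78 and 76 to 92 in pac1-ts on the shift, 51 to 74 and 61 to 69 in WT, and 2 to 7 for the interaction. The WT libraries could not be left out. The median difference to single-exon genes then ranged from -0.0293 to -0.00647, 0.0194 to 0.0356, 0.0154 to 0.0689, 0.0756 to 0.114 and 0.0801 to 0.0850. Without matching on abundance this difference was 0.0493 in pac1-ts at 30°C. For genes with 6 or more exons it was 0.146 and 0.122 on the shift in pac1-ts and WT. In alternatives chosen after seeing the data it was 0.117 and 0.107 without genes overlapping on the same strand, and 0.0640 in WT without wtf genes. Among the named genes, prr1 and cdd1 kept their call in Pac1-AA in every alternative, lam1 lost it in 4, mug161 and nda3 in 3 each, and msi2 with library totals (adjusted p = 0.0118, edgeR's quasi-likelihood test). Without the interaction term nda3, SPAC1687.21 and irc3 lost their call in pac1-ts at 37°C.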

Other observations

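A few of the 341 genes stood far higher in every library of the exonuclease experiment, its WT included, than in the other experiments. They were chosen after their values were seen. qcr6, a subunit gene of the respiratory ubiquinol-cytochrome-c reductase with 5 exons, had 2982 CPM in the library labelled dis3, 3370 in that labelled dhp1 and 4177 in that labelled dhp1 dis3, against 7611 in their WT. In the anchor-away libraries qcr6 had 252 and 247 CPM in Pac1-AA and 252 and 263 in CTL, and it had 224 CPM in WT at 30°C. vma10, the V-ATPase subunit gene, had 2057, 689 and 2939 CPM in the libraries labelled dis3, dhp1 and dhp1 dis3 and 2716 in their WT, while it had 118 and 122 CPM in Pac1-AA, 128 and 124 in CTL and 179 in WT at 30°C. vti1, a SNARE gene of vesicle fusion that overlaps another gene on the same strand, had 173, 347 and 300.8 CPM in the same 3 libraries and 672 in their WT, against 24.2 in WT at 30°C. The experiments differ in strain, and only the exonuclease cells were given thiamine and only the anchor-away cells rapamycin. The temperature experiment also used another library kit. These differences cannot be told apart here, and no test was made across the experiments.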
